A study of Mus musculus with 2 samples.

Results

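The 52 genes described here encode the DNA replication machinery, from the complex that marks replication origins to the enzymes that supply nucleotides. They were chosen as a fixed list of gene symbols by known function, with earlier results of these data known, and were sorted into 13 groups by role. Each of the 52 had a row among the 18877 genes of the deposited table.

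The study asked how germ cells induced in culture from parthenogenetic embryonic stem cells compare with those of the embryo, the primordial germ cells (PGCs) from which eggs and sperm later form. The table holds RNA-seq of 1 group, PGCs of C57BL6 mice at embryonic day 9.5 (E9.5), in 2 replicates. The cells were untreated and were taken with an antibody to SSEA1, a surface sugar of early germ cells and pluripotent cells; per the study's methods the embryos were female, and sorting used either SSEA1 with CD61 or SSEA1 beads. The induced cells and E12.5 PGCs were not analysed here, so no comparison between groups was possible and no test was run. The study calls its RNA-seq replicates biological, but nothing in the labels says that they came from separate litters. An isolate of this kind can hold other cells, and in bulk RNA fewer cells of a type and less RNA per cell cannot be told apart.

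A cell copies its DNA once per division. The origin recognition complex (ORC) binds the start sites, and Cdc6 and Cdt1 load the ring of MCM2-7 helicase there. The Cdc7 kinase with its partner Dbf4 acts on this ring, and Cdc45 and GINS then join it to start the helicase. Polymerase alpha with primase lays down primers, polymerases epsilon and delta extend the 2 strands, and the ring-shaped clamp PCNA, loaded by replication factor C (RFC), holds the polymerases on DNA. E9.5 PGCs are migrating cells that are known to divide.

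Values are in TPM, a unit of transcript abundance that the authors scaled for gene length and to a near-constant total, which was 998792 in replicate 1 and 998955 in replicate 2. Whole reads could be recovered from the TPM and the exon length of each gene, and gave 15912470 reads in replicate 1 and 5458687 in replicate 2. Replicate 1 was therefore 2.92 times deeper, and low values of replicate 2 carry more counting error. Members held 48 to 12367 reads in replicate 1 (median 1307) and 15 to 3734 in replicate 2 (median 461). The lowest counts are those of Chaf1b, for which the nearest of several lengths that fit was used. Of 15 PGC marker genes 14 were at 1 TPM or more in both replicates, led by Dppa3 (5013 and 5075 TPM), and 10 were at 10 TPM or more in both. The lowest was Fut4 (0 and 0.147 TPM), which encodes a fucosyltransferase, and the next lowest was Pou5f1 (1.54 and 1.46 TPM). Of 7 erythroid markers with a row 6 passed 1 TPM in both: embryonic haemoglobin was present, with Hba-x at 2331 and 2065 TPM, while the erythroid factor Klf1 was at 0.275 and 1.56 TPM. The other marker lists ran from their lowest to their highest gene as follows, in mean TPM: macrophage from C1qb at 0.580 to Fcer1g at 8.56, endothelial from Cldn5 at 0.329 to Pecam1 at 9.11, and mesenchyme from Col1a2 at 0.356 to Col3a1 at 1.23. Gut endoderm ran from Foxa1, at 0 reads in both replicates, to Epcam at 149, a gene that PGCs also express, and neural from Tubb3 at 1.37 to Pax6 at 3.55. The part of other cells in the levels given here was not tested.

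Nearly all of the replication machinery was expressed. Of the 52 members 51 were at 1 TPM or more in both replicates, against 60.0% of all genes, and 40 were at 10 TPM or more in both, against 25.3% of all genes. The exception was Chaf1b, at 1.01 TPM in replicate 1 and 0.897 in replicate 2. With levels set per length of the principal transcript of each gene, in place of the length of all its exons, Chaf1b was at 1.76 TPM on average and 52 members passed 1 TPM in both. On the log2(TPM + 1) scale the median member was at 4.72 in replicate 1 and 4.50 in replicate 2, and the median gene of the table at 1.89 and 1.85. Both medians of the members lay more than 2 log2 units above those of the table, and 50 members were above the table's median in both replicates.

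Within the machinery the levels were far apart. The mean ran from 725 TPM for Rfc4 to 0.953 for Chaf1b, a ratio of 761 (736 in replicate 1 and 789 in replicate 2), and of 365 with principal transcript lengths. Means were over 100 TPM for 8 members, between 10 and 100 for 34 and under 10 for 10. Rfc4, Pcna and Tipin together held 45.7% of the members' summed TPM in replicate 1 and 46.2% in replicate 2. In GENCODE M21 (GRCm38) Rfc4 lies at chr16:23113943-23127737 and Chaf1b, at the other end of the range, at chr16:93883901-93906115. Pcna lies at chr2:132249162-132253314 and Tipin at chr9:64281581-64305424. The other 5 members over 100 TPM were Gins4, Rrm2, Gins1, Pole4 and Tyms, so the 8 came from the clamp and its loader, fork protection, the helicase cofactors, a polymerase and nucleotide supply.

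**Figure D1:**
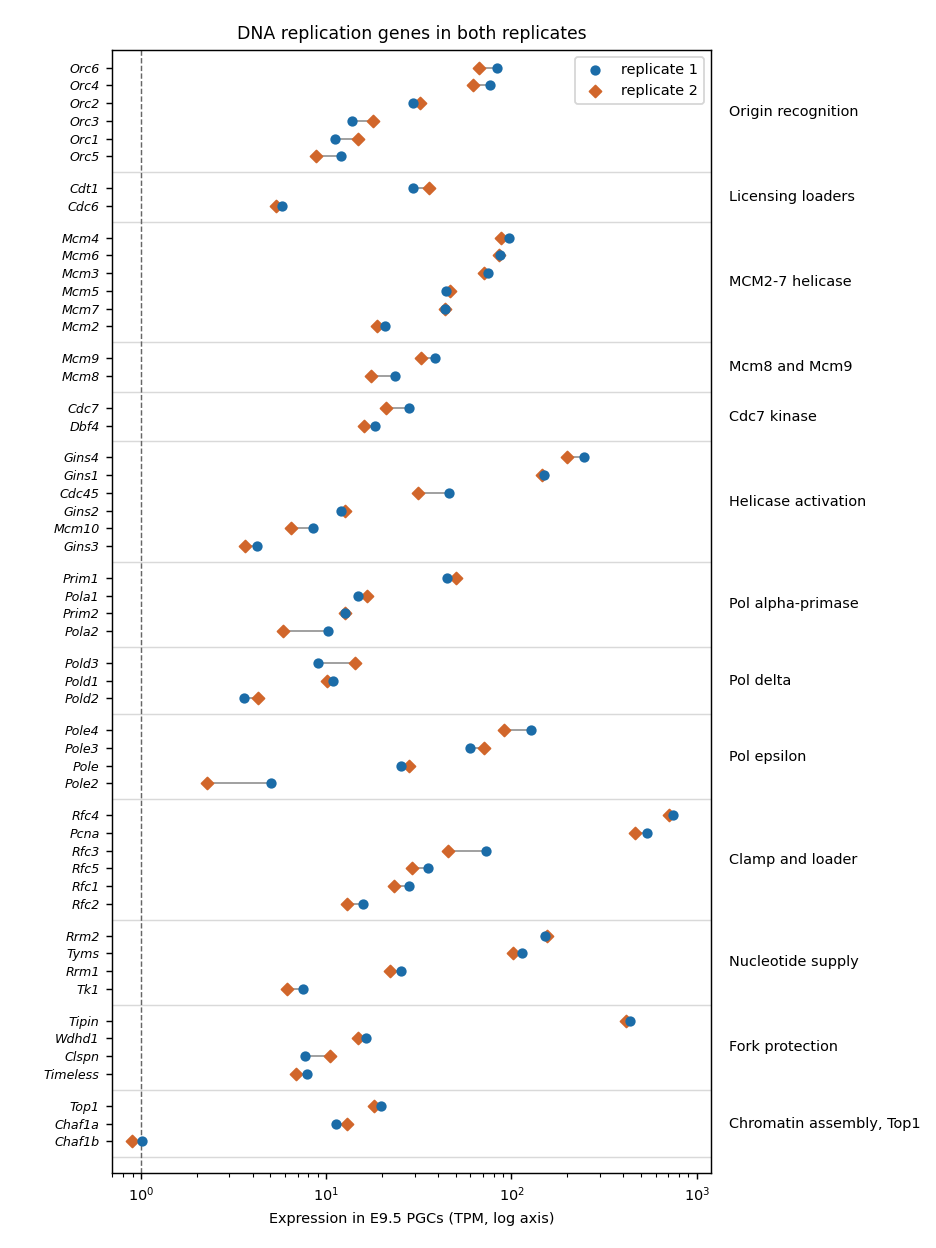
TPM of each of the 52 members (x axis, log scale) in replicate 1 (circles) and replicate 2 (diamonds), by role; a grey line joins both values and the dashed line marks 1 TPM. Rfc4 (725 TPM on average), Pcna (504) and Tipin (425) stand to the right, and Chaf1b (0.953) is the member at the dashed line.

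Origin recognition and licensing genes were expressed at unequal levels. Of the ORC subunits, Orc6 was at 83.3 TPM in replicate 1 and 66.8 in replicate 2, and Orc4 at 76.3 and 62.0. Orc2 followed at 29.5 and 32.3 TPM. These 3 were higher in both replicates than the other subunits, Orc3 (13.8 and 17.9 TPM), Orc1 (11.1 and 14.9) and Orc5 (12.0 and 8.83). The ranges over replicates overlapped for Orc6 and Orc4, for Orc3 and Orc1, and for Orc1 and Orc5, so these neighbours did not differ beyond their spread. With principal transcript lengths the order of the lower 4 turned, with Orc3 (29.7 TPM on average) over Orc2 (23.7) and Orc5 (21.7) over Orc1 (10.6). Orc6 was highest under both lengths, 7.19-fold over Orc5 as deposited and 9.61-fold over Orc1 with principal transcript lengths. Of the loaders, Cdt1 was at 29.6 and 35.7 TPM and Cdc6, the ATPase that brings MCM2-7 to ORC with it, at 5.77 and 5.38. Cdt1 was 5.86-fold higher on average (5.12 in replicate 1 and 6.64 in replicate 2). Gmnn, which encodes the Cdt1 inhibitor geminin and is no member, was at 570 and 585 TPM, far above Cdt1 in both replicates.

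The MCM2-7 subunits, which form a ring with each subunit present once, were all between 18.7 and 96.6 TPM. Mcm4 was highest at 96.6 TPM in replicate 1 and 87.9 in replicate 2, then Mcm6 at 87.2 and 85.8 and Mcm3 at 75.0 and 71.3. Mcm5 was at 44.2 and 46.7 TPM, Mcm7 at 43.9 and 43.5, and Mcm2 at 20.8 and 18.7. The order was the same in both replicates, and Mcm4 was 4.67-fold over Mcm2 (4.65 and 4.70). The ratio of replicate 2 to replicate 1 lay between 0.901 (Mcm2) and 1.06 (Mcm5). With principal transcript lengths the ratio of Mcm4 to Mcm2 was 2.27, and Mcm6 became the highest, 3.41-fold over Mcm2. Mcm9 and Mcm8, related helicases that act in recombination repair, were at 38.7 and 32.6 TPM and at 23.4 and 17.5 TPM. In Mcm9, 1748 of 9113 exon bases are shared with Asf1a on the opposite strand, which was at 224 and 189 TPM, and whether reads were counted by strand is not given in the sources used here.

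Promoters were read because cell-cycle control of these genes is known to run through E2F factors. A window of 250 bases before to 50 after the transcription start, from RefSeq (GRCm38.p6), was found for 44 of the 52 members, and not for Rfc2, Gins4, Tipin, Pole, Gins1, Prim2, Gins2 and Mcm4. The 4 E2F-type motifs searched on both strands were TTTCCCGC, TTTCGCGC, TTTGCCGC and TTTGGCGC, and matches may overlap. At least 1 was present for 17 of the 44 members (38.6%), against 704 of 27025 genes with a window (2.60%) and 402 of the 8028 of these at a mean of 1 TPM or more (5.01%). Among genes with a window at a mean of 10 TPM or more, 197 of 3230 had a match (6.10%). By role a site was held by 4 of 5 MCM2-7 genes, both loaders (Cdc6 and Cdt1) and 1 of 5 genes of the clamp and its loader. Polymerases delta and epsilon had a site in 2 of 3 genes each, and ORC in 2 of 6. Helicase activation, polymerase alpha-primase and fork protection had a site in 1 of 3 genes each, and of Mcm8 and Mcm9 only Mcm8 had 1. No site was found for 4 nucleotide supply genes, 3 genes of chromatin assembly and topoisomerase, and both genes of the Cdc7 kinase. Sites numbered 1 in 12 members, 2 in 4 members and 3 in Mcm6. The windows of the 5 members with more than 1 site, 4 of them MCM2-7 subunits, are shown 5′ to 3′ on the strand of the gene, with the motif in capitals.

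Mcm3 (chr1:20820263-20820562, minus strand): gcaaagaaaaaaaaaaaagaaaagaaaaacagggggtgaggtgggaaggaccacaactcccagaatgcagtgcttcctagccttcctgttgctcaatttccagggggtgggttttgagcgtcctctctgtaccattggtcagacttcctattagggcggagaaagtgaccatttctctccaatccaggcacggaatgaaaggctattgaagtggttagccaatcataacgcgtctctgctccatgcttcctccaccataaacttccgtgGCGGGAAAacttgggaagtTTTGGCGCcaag
Mcm5 (chr8:75109259-75109558, plus strand): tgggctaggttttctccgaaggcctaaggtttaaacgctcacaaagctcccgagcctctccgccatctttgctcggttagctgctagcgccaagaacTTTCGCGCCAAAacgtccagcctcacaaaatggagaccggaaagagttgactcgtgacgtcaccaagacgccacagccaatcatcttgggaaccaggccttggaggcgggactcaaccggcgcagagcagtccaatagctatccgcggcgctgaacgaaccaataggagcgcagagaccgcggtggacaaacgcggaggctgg
Mcm6 (chr1:128359656-128359955, minus strand): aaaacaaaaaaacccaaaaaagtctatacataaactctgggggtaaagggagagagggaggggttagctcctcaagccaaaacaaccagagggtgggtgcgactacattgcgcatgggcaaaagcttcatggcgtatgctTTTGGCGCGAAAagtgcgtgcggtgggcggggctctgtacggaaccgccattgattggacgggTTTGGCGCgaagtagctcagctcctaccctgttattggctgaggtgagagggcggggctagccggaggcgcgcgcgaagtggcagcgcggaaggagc
Mcm7 (chr5:138171834-138172133, minus strand): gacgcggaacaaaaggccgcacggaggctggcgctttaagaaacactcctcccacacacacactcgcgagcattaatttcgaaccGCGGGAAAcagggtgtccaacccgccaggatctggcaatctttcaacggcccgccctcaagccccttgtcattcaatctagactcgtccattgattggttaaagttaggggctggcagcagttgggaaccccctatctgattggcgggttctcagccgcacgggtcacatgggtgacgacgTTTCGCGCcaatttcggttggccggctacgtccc
Rfc3 (chr5:151651159-151651458, minus strand): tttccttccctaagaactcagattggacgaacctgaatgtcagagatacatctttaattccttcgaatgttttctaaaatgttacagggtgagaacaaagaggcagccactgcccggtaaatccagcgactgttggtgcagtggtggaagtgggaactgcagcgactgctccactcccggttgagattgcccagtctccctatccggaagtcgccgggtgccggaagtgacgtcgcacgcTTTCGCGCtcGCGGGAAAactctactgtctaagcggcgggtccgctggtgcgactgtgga

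Counted from 1 at the first transcribed base and from -1 just before it, the first capital stands at 20 in Mcm3, -153 in Mcm5, -110 in Mcm6, -165 in Mcm7 and -10 in Rfc3. The pair in Mcm5 and the first pair in Mcm6 overlap and are read on opposite strands, so each appears as 1 run of capitals. Among the 44 members with a window, holding a site did not go with a higher median level. The median of mean TPM was 15.9 for the 17 members with a site and 24.6 for the 27 without. Of the 8 members that had no window, Tipin, Gins4 and Gins1 were over 100 TPM, and whether they hold a site is not known. Of the high members with a window, Rfc4, Pcna, Rrm2 and Tyms had no match and Pole4 had 1. Of the members under 5 TPM, Gins3 and Pole2 had 1 each, while Pold2 and Chaf1b had none. A match is a string of letters and not a measured binding site. By the same search a site was held by 8 of 31 other replication genes (25.8%), 5 of 10 E2F and Rb genes (50%), 6 of 35 repair genes (17.1%) and 4 of 34 cyclin and mitosis genes (11.8%).

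Genes that start the helicase spanned a wide range. Cdc7, the kinase, was at 28.1 TPM in replicate 1 and 21.1 in replicate 2, and Dbf4, its activating subunit, at 18.2 and 16.0. Cdc7 was 1.44-fold higher, but 0.528 of Dbf4 with principal transcript lengths, so their order depends on the length used. Cdc45 was at 46.1 and 31.5 TPM, and Mcm10, which helps the helicase move, at 8.49 and 6.42. The 4 subunits of GINS, a complex with 1 copy of each, were far apart. Gins4 was at 247 and 199 TPM and Gins1 at 150 and 146, whereas Gins2 was at 12.1 and 12.6 and Gins3 at 4.23 and 3.64. Gins4 was 56.6-fold over Gins3 (58.3 in replicate 1 and 54.5 in replicate 2), and 52.6-fold with principal transcript lengths. In Gins2, 2758 of 4097 exon bases are shared with Gse1 on the opposite strand (1.75 and 1.91 TPM).

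The polymerases differed in level and in evenness. In polymerase alpha-primase, the small primase subunit Prim1 was at 45.1 and 50.2 TPM and the catalytic Pola1 at 14.8 and 16.6. Prim2 was at 12.6 TPM in both replicates, and Pola2, the accessory subunit, at 10.2 and 5.83. Pola2 was the lowest of the 4 in both replicates. With principal transcript lengths Pola1 was lowest on average, at 18.4 TPM against 20.2 for Pola2. That held in replicate 1, but in replicate 2 Pola2 was still lowest (14.7 TPM against 19.4 for Pola1). For Pola2 the nearest of several lengths that fit was used. For polymerase delta, the catalytic Pold1 was at 10.9 and 10.2 TPM, Pold3 at 9.05 and 14.4, overlapping Pold1, and Pold2 at 3.61 and 4.26. In polymerase epsilon, the catalytic Pole was at 25.4 and 28.0 TPM, 2.53-fold over Pold1. The small histone-fold subunits Pole4 (128 and 91.3 TPM) and Pole3 (59.6 and 71.3 TPM) were above Pole in both replicates. Pole2 was at 5.0 and 2.28 TPM, so Pole4 was 30.0-fold above Pole2 (25.5 and 40.0). Pole2 rests on 137 and 22 reads. In Pole2, 245 of 2881 exon bases are shared with Gm49384 on the same strand (43.5 and 34.2 TPM).

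The sliding clamp and 1 subunit of its loader were the highest members. Pcna was at 542 TPM in replicate 1 and 465 in replicate 2, and Rfc4 at 743 and 708. Rfc4 was 1.44-fold over Pcna, and 1.14-fold with principal transcript lengths. The other RFC subunits, with which Rfc4 forms a ring, were at 73.2 and 45.2 TPM for Rfc3, 35.3 and 29.1 for Rfc5, 28.1 and 23.2 for the large subunit Rfc1, and 15.8 and 13 for Rfc2. Rfc4 was 12.3-fold over Rfc3, the next subunit (10.2 in replicate 1 and 15.7 in replicate 2), and 5.58-fold with principal transcript lengths. It was 50.4-fold over Rfc2, and 49.9-fold with principal transcript lengths. The order of the 5 subunits was the same under both lengths. Rfc4 shares 194 of 1533 exon bases with Eif4a2 on the opposite strand (117 and 105 TPM). Reads of Pcna cannot be fully told from those of Pcna-ps2, a processed pseudogene on chromosome 19 that aligns to it at 99.2% identity over 781 bases, its whole length. This pseudogene was listed at 435 and 405 TPM, so both values are uncertain. The other 9 members with a pseudogene copy of at least 90% identity were Cdc6, Mcm4, Mcm6, Mcm7, Rfc5, Rrm2, Tk1, Tyms and Wdhd1. Of their copies, 2 had values, Gm12870 of Rfc5 at 0.414 and 0.883 TPM and Tyms-ps at 0.575 and 2.62 TPM, both far below the parent gene.

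**Figure D2:**
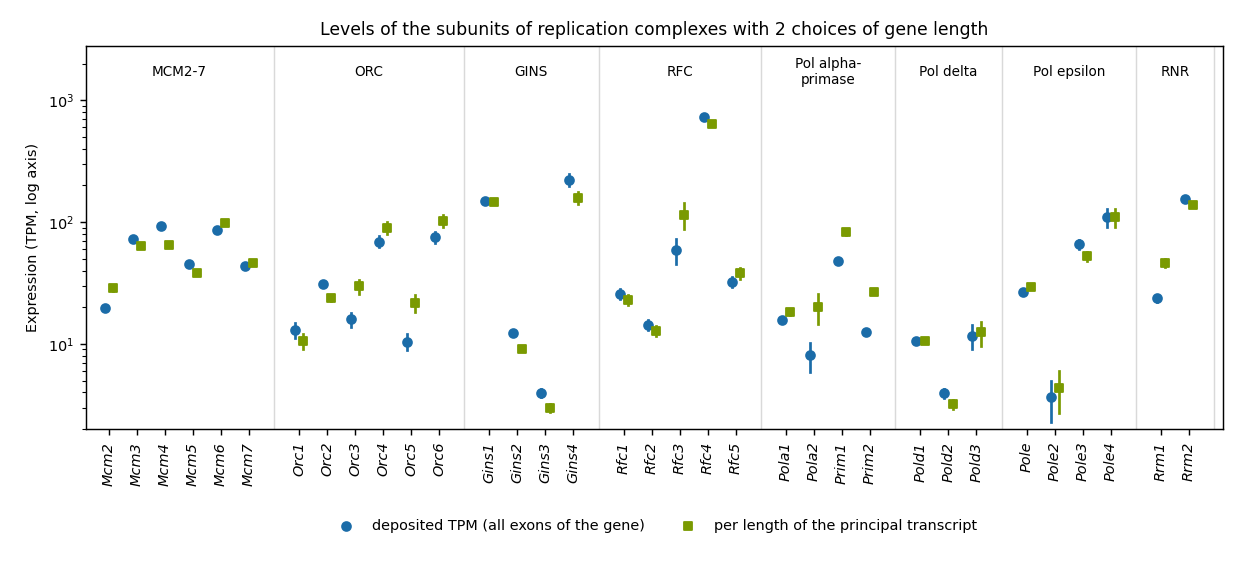
Level of each subunit of 8 complexes or enzymes (y axis, TPM, log scale) as deposited, per length of all exons (circles), and per length of the principal transcript (squares); markers are means and bars join both replicates, and RNR is ribonucleotide reductase. From highest to lowest, GINS spans 56.6-fold as deposited and 52.6-fold per principal transcript, RFC 50.4 and 49.9, MCM2-7 4.67 and 3.41, and ORC 7.19 and 9.61.

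Nucleotide supply genes ran from high to low. Rrm2, the small subunit of ribonucleotide reductase, was at 151 TPM in replicate 1 and 156 in replicate 2, and Rrm1, the large subunit, at 25.4 and 22.1. Rrm2 was 6.46-fold over Rrm1, and 2.96-fold with principal transcript lengths. Thymidylate synthase, Tyms, was at 114 and 102 TPM. Tk1, the thymidine salvage kinase, was at 7.49 and 6.16 TPM, the lowest of the 4 in both replicates.

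Partners in fork protection and in chromatin assembly were at very different levels. Tipin and Timeless form a heterodimer that steadies the fork, and Tipin was at 434 and 417 TPM against 7.84 and 6.85 for Timeless. That is a 57.9-fold difference (55.3 in replicate 1 and 60.9 in replicate 2), and 42.8-fold with principal transcript lengths. Clspn, the checkpoint mediator, was at 7.69 and 10.4 TPM and Wdhd1, which tethers polymerase alpha to the helicase, at 16.4 and 14.9. Clspn was near Timeless, Wdhd1 was 2.13-fold over Timeless, and both were far below Tipin. The histone chaperone subunits Chaf1a and Chaf1b were at 11.2 and 13 TPM and at 1.01 and 0.897 TPM. The difference was 12.7-fold, and 8.76-fold with principal transcript lengths, resting on 48 and 15 reads for Chaf1b. These reads and the 8.76-fold use the nearest of several lengths that fit, for both genes. In Chaf1a, 4648 of 8854 exon bases are shared with Ubxn6 on the opposite strand (14.7 and 16.4 TPM), and in Orc2 1150 of 3857 with Nif3l1 (19.9 and 21.6 TPM). Top1, which relieves supercoiling ahead of the fork, was at 19.8 and 18.2 TPM.

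Over the 52 members the Spearman correlation of mean TPM with exon length was -0.44, and -0.39 with principal transcript lengths for both measures. Over the 12806 genes of the table at a mean of 1 TPM or more it was -0.14. TPM is divided by the same length, so length enters both measures and a negative value is partly built in. These are correlations across genes of the same libraries, and genes are not independent replicates.

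The replicates were compared gene by gene. Of the 40 members at 10 TPM or more in both replicates, 26 were within 1.2-fold, against 67.3% of all such genes, and of the 51 at 1 TPM or more 30 were, against 48.6%. None of the 52 differed by more than 2-fold on the log2(TPM + 1) scale, against 10.2% of all genes and 4.21% of those at 1 TPM or more in both. On reads, 1 member passed 2-fold, Pole2, whose ratio of replicate 2 to replicate 1 was 0.457 (exact 95% interval 0.277 to 0.720). The members furthest down in replicate 2, on log2(TPM + 1), were Pole2 (-0.87), Pola2 (-0.72) and Rfc3 (-0.68), and those furthest up were Pold3 (0.61), Clspn (0.40) and Orc1 (0.39). The interval excluded a ratio of 1 for 32 members, 22 of them lower and 10 higher in replicate 2, and held 1 for 20. Such an interval excluded 1 for 46.3% of the 11115 genes with at least 50 reads in total. The interval narrows as reads rise, and this share is not matched to the members' reads (median 1307 and 461). The interval covers counting error only, and PCR copies of a molecule make it too narrow. Altogether 37 members were lower in replicate 2 and 15 higher, where 51.3% of all genes were lower, and after median-of-ratios scaling 33 were lower and 19 higher, with 48.5% of all genes lower. Among the 40 members at 10 TPM or more in both, 28 were lower, against 56.2% of all such genes.

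**Figure D3:**
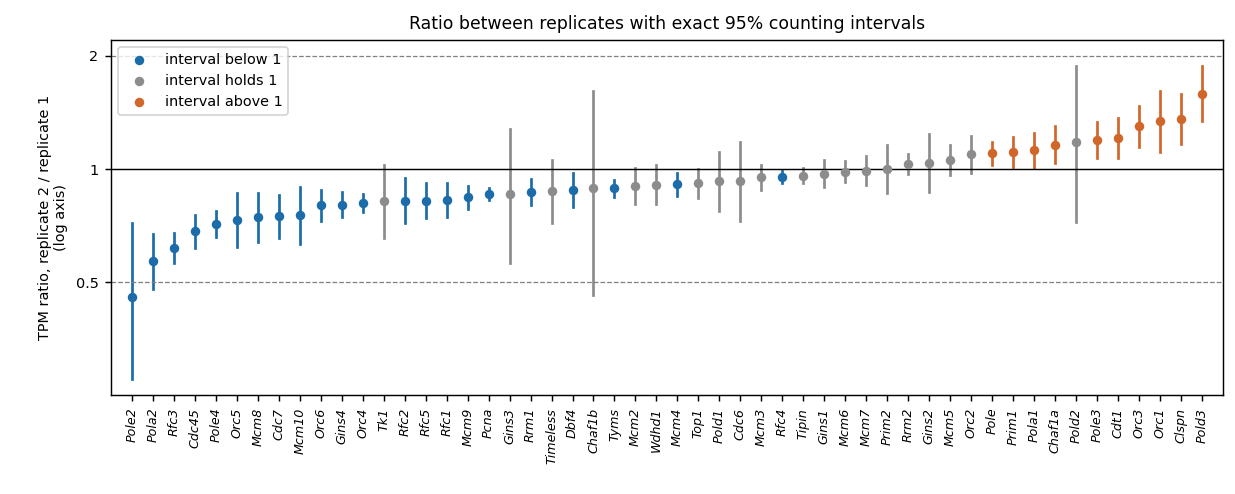
Ratio of TPM in replicate 2 to replicate 1 for each member (y axis, log scale), in order, with exact 95% intervals for counting error; colours mark intervals below, across and above 1 and dashed lines mark 0.5 and 2. Pole2, at 0.457, is the member beyond a dashed line, and 32 of the 52 intervals lie off 1.

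Related genes from fixed lists lay beside or below the machinery. Of 41 symbols listed for other replication genes, with Pclaf also under an older name, 40 had a row. Of these 40, 38 were at 1 TPM or more in both replicates, and the medians were 4.60 and 4.47 on the log2(TPM + 1) scale. Highest were Rpa3 (944 and 948 TPM), the small subunit of the single-strand binding protein, Gmnn, and Dut (321 and 316 TPM), which clears dUTP. Lowest were Pold4, at 0 reads in both replicates, Chtf8 (1.39 and 1.77 TPM) and Rrm2b (1.79 and 1.44 TPM). Pold4 is the smallest subunit of polymerase delta, and a count of 0 allows up to 3 reads in a library. Cyclin, CDK and mitosis genes had medians of 4.19 and 4.06, and 38 of 41 passed 1 TPM in both. Highest were the cyclins Ccnb2 (255 and 241 TPM), Ccnb1 (200.2 and 147) and Ccna2 (149 and 136). Lowest were Cdkn2c (0.117 and 0.111 TPM), Cdc25b (0.282 and 1.36) and Cdkn1b (1.83 and 0.066), of which Cdkn2c and Cdkn1b encode inhibitors of CDKs.

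DNA repair genes had lower medians, 3.23 and 3.10, with 41 of 47 at 1 TPM or more in both. They were led by the base excision nuclease Apex1 (411 and 376 TPM), the mismatch sensor Msh6 (132 and 129) and Parp1 (52.6 and 40.5). Lowest were Ercc4 (0.688 and 0.578 TPM), Ogg1 (0.673 and 0.684) and Ercc2 (0.505 and 1.15). E2F and Rb genes were the lowest list, at 2.37 and 2.56, with 12 of 13 at 1 TPM or more in both. E2f5, a repressor E2F, stood apart at 145 and 137 TPM, followed by the E2F partners Tfdp1 (43.5 and 36.8) and Tfdp2 (7.15 and 9.21). Lowest in mean TPM were E2f2 (0.946), Rbl2 (1.17) and E2f7 (1.27).

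**Figure D4:**
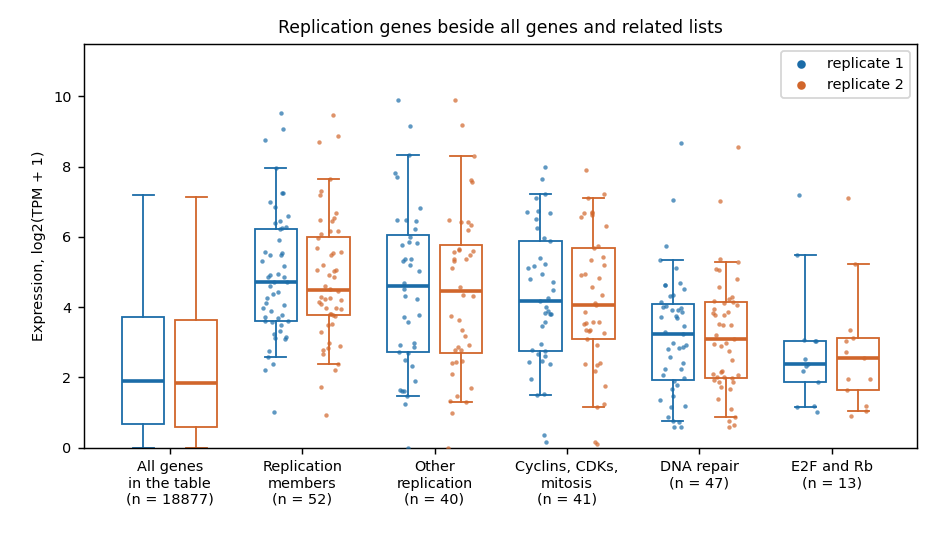
Expression as log2(TPM + 1) (y axis) in replicate 1 and replicate 2 for all genes, the replication members and 4 related lists; boxes span the quartiles with the median, whiskers the 5th to 95th percentile, and points are genes. The members' medians (4.72 and 4.50) lie near those of other replication genes (4.60 and 4.47) and above those of E2F and Rb genes (2.37 and 2.56) and of all genes (1.89 and 1.85).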

How the data were processed

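RNA-seq of 2 replicates of E9.5 PGCs was analysed. Per the study's methods, cDNA was made by Smart-seq2, while the labels name a NEBNext Ultra kit, so the library chemistry is uncertain. The authors aligned reads to mm10 with Hisat2 and counted them per gene with featureCounts; strand handling is not given in the sources used here. The submitters' processing notes also name Bowtie2, RSEM, R 3.4.2 and DESeq2. The deposited values are TPM, taken as they are.

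Reads were recovered as TPM multiplied by the exon length of the gene (GENCODE M21, GRCm38) over the value of 1 read. Of values under 50 reads, 96.7% and 95.8% were whole within 0.02. Recovery was also run on simulated data made with the same lengths (100% of 18748 genes in each replicate). That run cannot show an error in the lengths. For 47 members the annotated length gave whole reads, for Cdc45 and Rfc4 the length was solved from the values, and for Pola2, Chaf1a and Chaf1b the nearest of several lengths was used. The deposited TPM were also put on a log2(TPM + 1) scale. Intervals are exact at 95%. Pseudogene copies were sought with BLAST 2.17.0 (at least 90% identity over 200 bases and 50% of the copy). Python 3.11.15, numpy 2.4.6, pandas 2.3.3 and scipy 1.17.1 were used.

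Members and lists were chosen with earlier results of these data known. All members are named by role. Named from each related list are the 3 highest and 3 lowest genes, and from each marker list the highest and lowest. Of the PGC markers, Pou5f1 is named as well. For replicate differences the 3 largest each way are named. Alternatives were the pseudocount, a filter on low values, scaling, thresholds, leaving out a replicate and, added after seeing the data, principal transcript length.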

Additional observations from a re-analysis of the deposited data

How the results depend on the processing

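Beside leaving out a replicate, which with 2 replicates cannot move a value past their spread, 102 alternative values were computed for 32 results. Of these, 60 moved by less than the replicate spread or, for counts, by at most 1.5-fold, 41 moved by more, and 1 reversed, the ratio of Cdc7 to Dbf4 (0.528 with principal transcript lengths, an alternative chosen after seeing the data). With these lengths the ratio of the pair that was highest and lowest as deposited became 2.27 for MCM2-7, 4.71 for ORC, 52.6 for GINS and 3.87 for polymerase delta. With highest and lowest taken anew it was 3.41 for MCM2-7 and 9.61 for ORC. The members' median became 4.98. Without mitochondrial genes and the 10 highest genes the medians on the log2 scale rose to 4.95 for members, 4.88 for other replication genes, 2.77 for E2F and Rb genes, 4.46 for cyclin and mitosis genes and 3.49 for repair genes. With genes at a mean of at least 1 TPM they were 4.63 for other replication, 4.30 for cyclin and mitosis and 3.47 for repair genes. With a pseudocount of 0.1 they were 2.21 for E2F and Rb and 3.01 for repair genes, and 1 member passed 2-fold between replicates, as on recovered reads. Leaving out either replicate gave a members' median of 4.50 to 4.72 and 51 to 52 members at 1 TPM or more. Thresholds of 0.5, 5 and 10 TPM gave 52, 48 and 40 members. No paired analysis was possible because the series has 1 group. The lower depth of replicate 2 limits Chaf1b, Pole2, Pold2 and Gins3, which had 15 to 33 reads there, with Chaf1b counted at the nearest of several lengths.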
